A study of Mus musculus with 16 samples.

Results

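Interleukin-6 family cytokines and receptors, together with interleukin-10 and 2 colony-stimulating factors, were followed across ventricular myocardium with and without the adenosine 2A receptor (A2AR) and with and without lipopolysaccharide (LPS, bacterial endotoxin). The set was chosen by name: Il6, Lif, Csf3, Csf1 and Il10 encode secreted factors, and Il6ra, Il6st, Osmr, Lifr and Il10ra encode receptor chains. Probe sets annotated with exactly 1 of these symbols numbered 24, every gene had at least 1, and the brightest of them on average stood for its gene, which gave 10 genes of the 18193 tested. All mice were males of 14 weeks on a CD1 background, and the wild-type (WT) mice were littermates of the A2AR knockout (KO) mice. The 4 groups, each of 4 arrays, were KO with LPS at 20 mg/kg, WT with the same LPS injection, KO with saline and WT with saline, all taken 24 h after 1 intraperitoneal injection. All mice came from a sub-colony of the original KO line, with no cell-type restriction of the deletion given.

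IL-6 signals by binding the IL-6 receptor chain (Il6ra) and then a shared signal-transducing chain, gp130, encoded by Il6st. LIF uses the same gp130 with the LIF receptor chain (Lifr). Oncostatin M in the mouse uses gp130 chiefly with the oncostatin M receptor chain (Osmr). The receptor tails activate Janus kinases and the transcription factor STAT3, which induces its own brake, Socs3. IL-10 also acts through STAT3 but through receptors of another class, and CSF1 and CSF3 are the growth and survival factors of macrophages and neutrophils. In the heart, cardiomyocytes, fibroblasts and endothelial cells carry gp130, and IL-6 and Csf3 are classical products of endotoxin-exposed tissue.

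Windows of 300 bases (250 before the start and 50 from it on) were found in RefSeq (GRCm38.p6) for 7 of the 10 genes, Lifr with a window at each of 2 starts, and 4 motifs were searched on both strands: NF-kB (GGG, any 3 bases, TTCC), STAT (TTCNNNGAA), C/EBP (TTGCNNAA) and AP-1 (TGANTCA). Matches are shown in capitals for 3 genes that rose after LPS, because they show how unlike their windows are. No 2 matches overlapped in these windows. The Il6 window lies at chr5:30012864-30013163 on the plus strand, the Osmr window at chr15:6874264-6874563 on the minus strand and the Csf1 window at chr3:107760420-107760719 on the minus strand, and each is written 5′ to 3′ along its gene.
Il6: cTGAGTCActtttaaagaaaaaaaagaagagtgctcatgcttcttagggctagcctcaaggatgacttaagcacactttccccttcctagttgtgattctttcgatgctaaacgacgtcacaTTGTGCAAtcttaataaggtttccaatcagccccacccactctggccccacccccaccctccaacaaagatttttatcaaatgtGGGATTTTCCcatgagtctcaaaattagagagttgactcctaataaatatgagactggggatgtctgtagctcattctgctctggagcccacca
Osmr: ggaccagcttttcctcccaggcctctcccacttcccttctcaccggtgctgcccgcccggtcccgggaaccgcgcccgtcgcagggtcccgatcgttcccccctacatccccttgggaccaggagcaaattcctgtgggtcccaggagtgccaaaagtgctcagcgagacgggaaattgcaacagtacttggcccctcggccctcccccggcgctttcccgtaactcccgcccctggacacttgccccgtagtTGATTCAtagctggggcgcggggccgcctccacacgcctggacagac
Csf1: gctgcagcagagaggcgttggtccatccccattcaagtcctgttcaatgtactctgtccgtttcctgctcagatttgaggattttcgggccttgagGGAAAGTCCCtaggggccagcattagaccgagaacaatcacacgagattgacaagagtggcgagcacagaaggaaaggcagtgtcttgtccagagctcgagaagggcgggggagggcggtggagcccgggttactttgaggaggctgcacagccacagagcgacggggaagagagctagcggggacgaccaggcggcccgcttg

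The Il6 window held 3 matches: an NF-kB match 44 bases before the start, a C/EBP match 128 bases before it and an AP-1 match 249 bases before it. Osmr held 1 AP-1 match, just after the start, and Csf1 held 1 NF-kB match, 154 bases before the start on the opposite strand. Lif, which by its chosen probe set did not pass the test after LPS, held 1 AP-1 match 228 bases before its start. No match to these 4 motifs lay in the windows of Il6ra, Il6st or Lifr. Over all 32841 mouse windows of that length, 5.56% held the NF-kB motif, 8.30% the STAT motif, 10.8% the C/EBP motif and 7.81% the AP-1 motif. A match describes letters in a window and says nothing of binding.

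Expression is given as the deposited log2 value of each probe set after RMA, a normalization that makes arrays comparable, so a difference of 1 is a factor of 2. Changes are differences of group means with the standard error of limma, a linear model fitted to all genes and all 16 arrays, and a gene was called where its p, adjusted by Benjamini-Hochberg over the 18193 genes, lay under 0.05. The labels number the arrays of a group without saying whether each came from a mouse of its own, so p-values measure only the spread between these samples, which may be technical. The genotype of each array rests on its label. The tissue label held: 8 cardiomyocyte markers averaged 13.39 to 13.97 per array. Principal component 1 (66.3% of the variance) put saline arrays at -39.6 to -35.5 and LPS arrays at 27.6 to 54.0, except WT LPS array 4, which lay at 7.58. The mean level of 8 skeletal muscle markers was 7.73 in WT saline array 1 and 8.85 in WT saline array 4, while all remaining arrays lay between 5.70 and 6.13. Results that rest on these 3 arrays are given with and without them.

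The LPS comparisons ask how these genes responded to endotoxin in hearts with and without the A2AR. Il6 and Csf3 rose most, Osmr, Csf1 and Il6ra rose less, and Lifr fell, in both KO and WT hearts. In each genotype 6 of the 10 genes were called, 5 higher and 1 lower, and for the same 6 genes the LPS and saline arrays did not overlap. Of all genes tested, 26.1% were called in KO hearts (11.4% higher and 14.7% lower) and 20.9% in WT hearts (9.28% higher and 11.6% lower), and the arrays did not overlap for 28.5% in KO hearts (12.3% higher and 16.1% lower) and 22.8% in WT hearts (10.9% higher and 11.9% lower). The median log2 change of the 10 genes was 0.65 in KO and 0.55 in WT hearts, against -0.02 and -0.004 over all genes. By their chosen probe sets, Lif, Il6st, Il10 and Il10ra did not pass the test in either genotype.

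**Figure D1:**
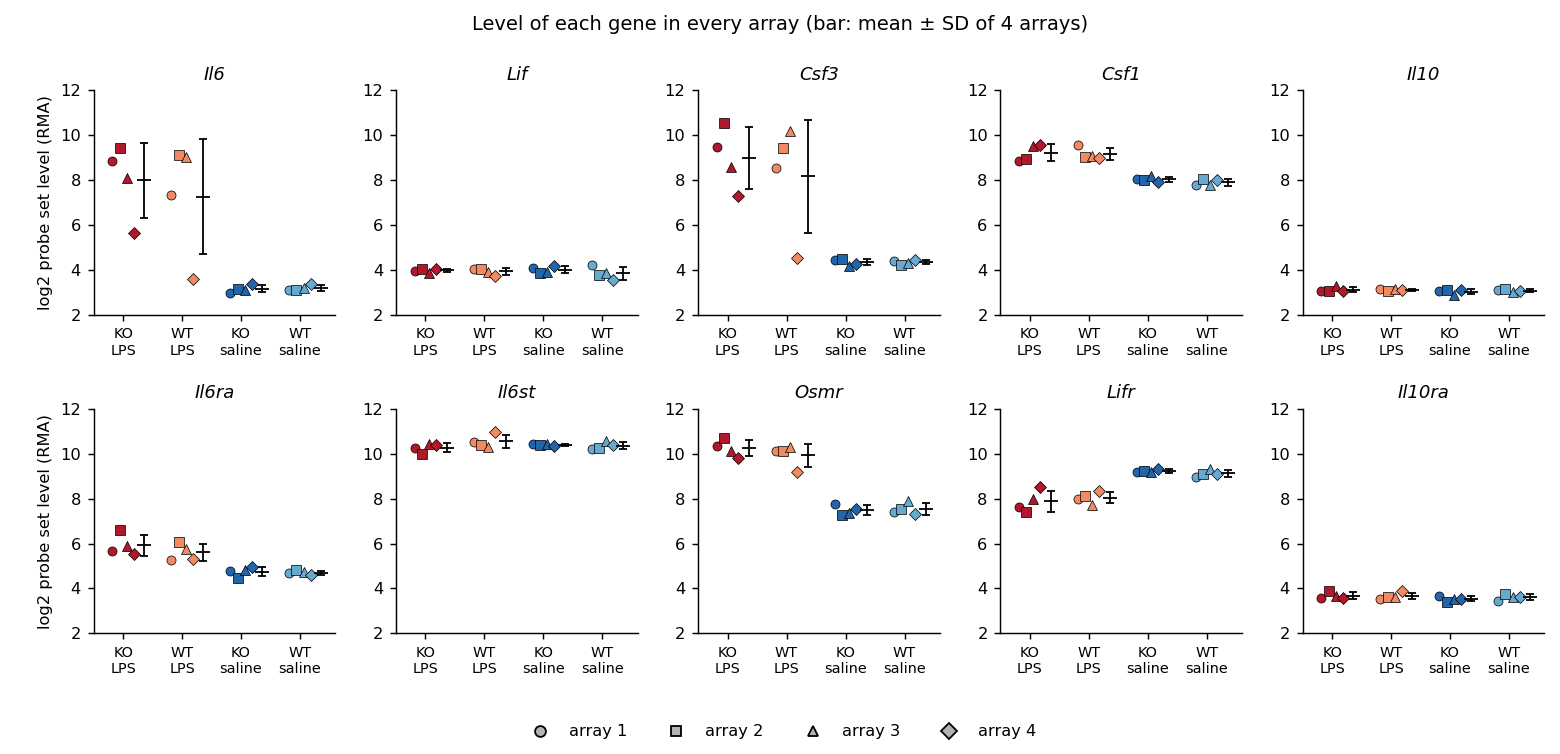
Log2 level of each gene (vertical axis) in every array, by group (horizontal axis, KO LPS, WT LPS, KO saline and WT saline); symbols mark array number and bars give mean ± SD of 4 arrays. Il6 and Csf3 spread widely over the LPS arrays, and WT LPS array 4 (diamond), at 3.61 for Il6 and 4.53 for Csf3, lies close to the saline arrays.

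Il6, the cytokine that names the family, had levels of 8.84, 9.44, 8.11 and 5.63 in KO LPS arrays 1 to 4, against 2.98, 3.17, 3.11 and 3.36 in KO saline arrays. In WT hearts it had 7.34, 9.13, 9.02 and 3.61 after LPS, against 3.12, 3.10, 3.20 and 3.38 after saline. WT LPS array 4 exceeded the highest saline array by little, and the other 7 LPS arrays stood well above all saline arrays. The rise was 4.85 ± 0.93 in KO hearts, or 28.8-fold (adjusted p = 0.000923), and 4.08 ± 0.93 in WT hearts, or 16.9-fold (adjusted p = 0.00423). Without WT LPS array 4 the WT rise was 5.30 ± 0.63, or 39.3-fold, and without KO LPS array 4 the KO rise was 5.64 ± 0.89, or 49.9-fold. It was 3.46 in WT hearts without WT LPS array 2 and 3.49 without WT LPS array 3, and it stayed called with any 1 array left out. Saline levels of Il6 lay under the median of all probe set values (5.05), where array background makes up much of the signal, so the size of its rise depends on that background.

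Csf3, which encodes the neutrophil growth factor G-CSF, had levels of 9.46, 10.56, 8.58 and 7.32 in KO LPS arrays 1 to 4, against 4.44, 4.51, 4.19 and 4.26 in KO saline arrays. In WT hearts the levels were 8.53, 9.43, 10.20 and 4.53 after LPS, against 4.42, 4.23, 4.31 and 4.43 after saline. As for Il6, array 4 was the lowest of the LPS arrays in each genotype, and that of WT was close to saline. Csf3 rose by 4.63 ± 0.87 in KO hearts (24.7-fold, adjusted p = 0.000780) and by 3.83 ± 0.87 in WT hearts (14.2-fold, adjusted p = 0.00412). Without WT LPS array 4 the WT rise was 5.04 ± 0.52, or 32.9-fold, and without WT LPS array 3 it was 3.15. Its saline levels were also under 5.05, with the same limit. The mean level of neutrophil markers was also higher after LPS. S100a8 (5.57 in KO and 4.84 in WT hearts) and S100a9 (4.99 and 4.86) rose most. The list's median change was 1.03 in KO and 0.41 in WT hearts. Of 8 measured, 5 rose in KO and 4 in WT hearts, and Csf3r, Cxcr2 and Ltf were called in neither. Of all genes, 11.4% were higher in KO and 9.28% in WT hearts. The mean marker level was 5.99 to 6.50 in KO LPS and 5.52 to 6.14 in WT LPS arrays. It was 4.11 to 4.21 in KO saline and 3.98 to 4.19 in WT saline arrays. WT LPS array 4, close to saline for Il6 and Csf3, had a marker mean of 5.52, above all saline arrays. The part of these markers in the result was not tested. In whole tissue, more cells of a type and more RNA per cell cannot be told apart.

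Csf1, the macrophage growth factor, had levels of 8.86 to 9.56 in KO LPS arrays, against 7.90 to 8.19 in KO saline arrays, and of 8.98 to 9.57 in WT LPS arrays, against 7.77 to 8.05 in WT saline arrays. Here WT LPS array 4, at 8.98, was close to array 2 (9.03), and KO LPS array 4, at 9.56, was the highest of its group. Csf1 rose by 1.19 ± 0.17 in KO (2.28-fold, adjusted p = 5.80e-05) and 1.26 ± 0.17 in WT hearts (2.39-fold, adjusted p = 3.89e-05). Lif and Il10 stayed at low levels in all groups. Lif ranged from 3.86 to 4.05 in KO LPS and 3.74 to 4.06 in WT LPS arrays, against 3.88 to 4.18 in KO saline and 3.53 to 4.24 in WT saline arrays. Its change was -0.04 (95% interval -0.30 to 0.22) in KO hearts and 0.09 (-0.17 to 0.35) in WT hearts. Il10, an anti-inflammatory cytokine of macrophages and lymphocytes, lay between 3.05 and 3.27 in KO LPS and 3.04 and 3.16 in WT LPS arrays, against 2.88 to 3.12 in KO saline and 3.03 to 3.16 in WT saline arrays. Its change was 0.08 (-0.05 to 0.21) in KO and 0.04 (-0.10 to 0.17) in WT hearts. All arrays had both genes under 5.05.

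**Figure D2:**
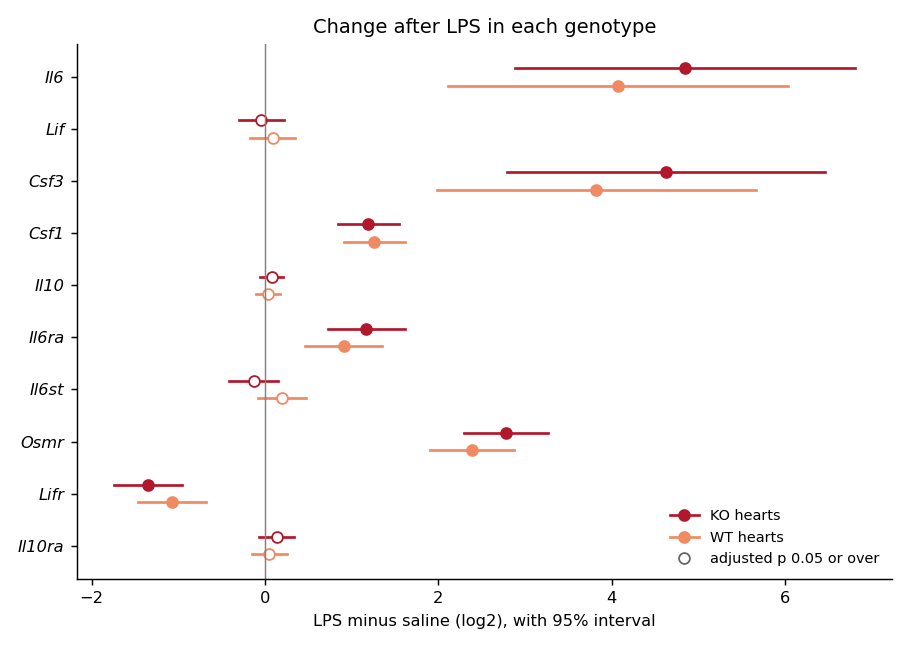
Change after LPS (horizontal axis, LPS minus saline on the log2 scale, with 95% intervals from limma) for the 10 genes, KO hearts above WT hearts; open points were not called. The intervals of KO and WT hearts overlap for every gene, and those of Il6 and Csf3 are the widest.

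Among the receptor chains, Osmr rose most. Osmr encodes a chain of the oncostatin M receptor. It had levels of 10.37, 10.71, 10.15 and 9.83 in KO LPS arrays 1 to 4, against 7.79, 7.27, 7.35 and 7.54 in KO saline arrays. In WT hearts it had 10.13, 10.12, 10.30 and 9.18 after LPS, against 7.41, 7.55, 7.91 and 7.30 after saline. All 8 LPS arrays lay at least 1 log2 unit above all 8 saline arrays. Osmr rose by 2.78 ± 0.23 in KO (6.87-fold, adjusted p = 1.86e-07) and 2.39 ± 0.23 in WT hearts (5.24-fold, adjusted p = 1.09e-06), which were the 100th and 161st smallest p-values of their comparisons. Without WT LPS array 4 the WT rise was 2.64 ± 0.18.

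Il6ra, the chain that binds IL-6, had levels of 5.67, 6.60, 5.87 and 5.54 in KO LPS arrays, against 4.76, 4.46, 4.82 and 4.97 in KO saline arrays. In WT hearts it had 5.28, 6.09, 5.77 and 5.31 after LPS, against 4.68, 4.82, 4.73 and 4.58 after saline. The groups did not overlap, with gaps smaller than those of Osmr. Il6ra rose by 1.17 ± 0.21 in KO (2.25-fold, adjusted p = 0.000518) and 0.91 ± 0.21 in WT hearts (1.88-fold, adjusted p = 0.00458). Without WT saline arrays 1 and 4 the WT change was 0.84 ± 0.27 and was no longer called (adjusted p = 0.0640). All saline arrays of Il6ra lay under 5.05, so the size of its rise also depends on the array background.

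Lifr, the receptor chain that LIF uses with gp130, fell. It had levels of 7.65, 7.41, 8.00 and 8.51 in KO LPS arrays, against 9.19, 9.25, 9.18 and 9.35 in KO saline arrays, and of 8.00, 8.12, 7.74 and 8.35 in WT LPS arrays, against 8.96, 9.11, 9.34 and 9.10 in WT saline arrays. Array 4 was the highest LPS array of each genotype and still lay under all saline arrays. Lifr fell by 1.35 ± 0.19 in KO (adjusted p = 4.83e-05) and by 1.08 ± 0.19 in WT hearts (adjusted p = 0.000473), so that saline levels were 2.55-fold and 2.11-fold the LPS levels. Markers of smooth muscle and pericytes fell too, 5 of 6 in each genotype. Of all genes, 14.7% were lower in KO and 11.6% in WT hearts. The mean marker level was 8.40 to 8.85 in KO LPS and 7.97 to 8.78 in WT LPS arrays. It was 9.36 to 9.84 in KO saline and 9.56 to 9.97 in WT saline arrays. KO LPS array 2, the lowest for Lifr (7.41), had the highest marker mean of the LPS arrays (8.85). Some cardiomyocyte, endothelial, fibroblast and adipocyte markers also fell in both genotypes. The part of any of these markers in the fall of Lifr was not tested.

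Il6st, the shared gp130 chain, had levels of 9.99 to 10.44 in KO LPS arrays, against 10.35 to 10.45 in KO saline arrays, and of 10.32 to 10.97 in WT LPS arrays, against 10.24 to 10.57 in WT saline arrays. Its change was -0.13 (95% interval -0.41 to 0.15) in KO and 0.19 (-0.08 to 0.47) in WT hearts, so that the intervals exclude a rise of the size seen for Osmr. Il10ra, the ligand-binding chain for IL-10, ranged from 3.57 to 3.90 in KO LPS and 3.54 to 3.89 in WT LPS arrays, against 3.41 to 3.67 in KO saline and 3.46 to 3.77 in WT saline arrays. Its change was 0.14 (-0.06 to 0.34) in KO and 0.05 (-0.15 to 0.25) in WT hearts.

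The other probe sets of 7 genes were a check on these values, with adjusted p from a fit over all single-symbol probe sets. Il6, Il10 and Csf3 had only 1 probe set. A second Osmr probe set rose by 2.41 ± 0.29 in KO and 2.28 ± 0.29 in WT hearts, while the third, at a mean level of 3.33, changed by 0.34 ± 0.14 and 0.28 ± 0.14 and was not called. For Csf1, 2 of the other 3 probe sets rose in both genotypes. The remaining Csf1 probe set changed by -0.04 ± 0.12 in KO hearts and rose by 0.46 ± 0.12 in WT hearts (adjusted p = 0.877 and 0.0142). The difference between these 2 responses (KO minus WT) was -0.50 ± 0.17 and was not called (adjusted p = 0.953). A second Il6ra probe set changed by 0.16 ± 0.12 in KO and 0.22 ± 0.12 in WT hearts and was not called, and neither of the other 2 Lifr probe sets was called, although all their changes were negative (-0.37 in KO hearts for both, and -0.34 and -0.10 in WT hearts). With the mean of all probe sets in place of the chosen one, the change of Il6ra was 0.66 in KO and 0.57 in WT hearts. That of Lifr was -0.70 and -0.50, and that of Osmr 1.84 and 1.65. These means hold the chosen probe set, so they are no separate check on it.

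For Il6st the call depended on the probe set. Of its 4 probe sets, that with the second highest mean (9.01) rose in both genotypes, to 9.48 in KO LPS against 8.69 in KO saline hearts and to 9.28 in WT LPS against 8.58 in WT saline hearts. Its rise was 0.79 ± 0.20 in KO (adjusted p = 0.00876) and 0.70 ± 0.20 in WT hearts (adjusted p = 0.0226). The other 2 changed by -0.29 ± 0.31 and -0.12 ± 0.37 in KO and by 0.36 ± 0.31 and 0.43 ± 0.37 in WT hearts, and were not called. A second Lif probe set rose by 0.41 ± 0.10 in KO hearts, to 4.03 after LPS against 3.62 after saline (adjusted p = 0.00753), and changed by 0.28 ± 0.10 in WT hearts (adjusted p = 0.0671). For this Lif probe set the responses of KO and WT hearts differed by 0.13 ± 0.14, which was not called (adjusted p = 0.957). The 2 other Il10ra probe sets were not called in either genotype. What the probe sets of 1 gene measure differently was not tested.

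**Figure D3:**
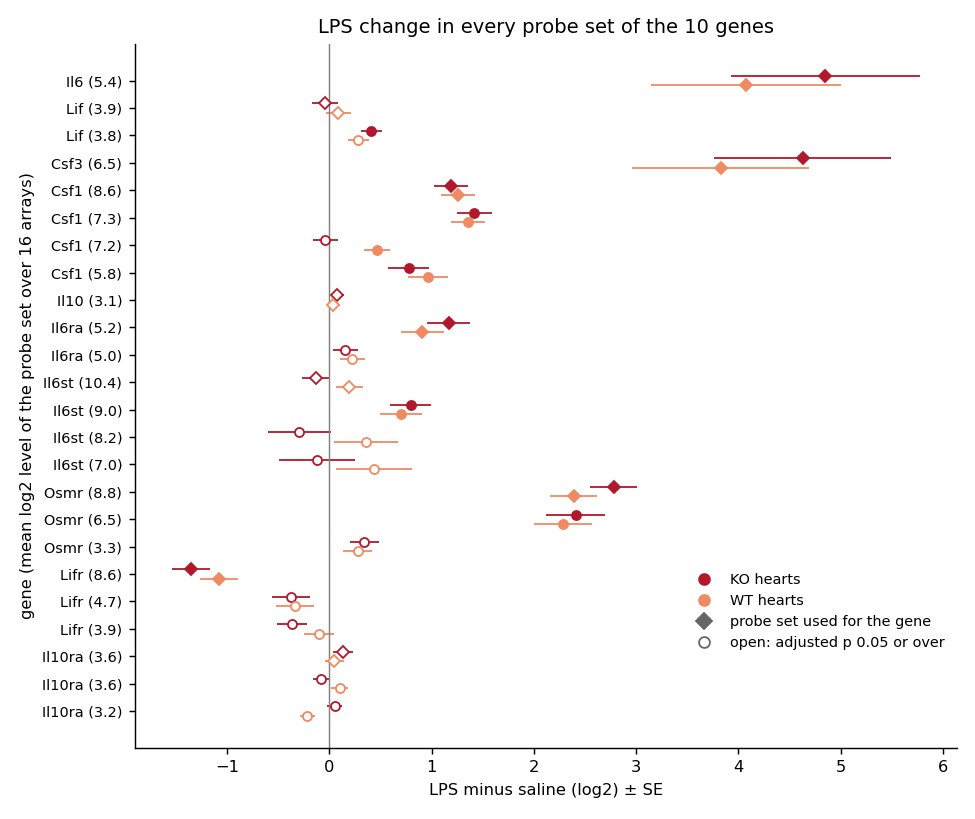
Change after LPS (horizontal axis, log2 ± SE) in each of the 24 probe sets, grouped by gene with the mean level over 16 arrays in brackets; diamonds mark the probe set used, open symbols those not called, KO above WT. The probe sets of Il6st and Csf1 differ in their change, and the dim probe sets of Osmr and Lifr change little.

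The A2AR comparisons ask whether loss of the receptor shifted these genes before or after endotoxin. None of the 10 was called by limma in KO against WT hearts after LPS or after saline, and none in the test of the difference between the LPS responses of KO and WT hearts. The background was as low: 0.0055% of genes tested (1 gene) were called in each knockout comparison and 0% in the difference of responses. At an unadjusted p under 0.05 the count of the 10 genes was 1 after LPS, 0 after saline and 0 for the difference of responses. Each of the alternative limma settings tried also called 0 of these genes in the 3 comparisons; the filter on low levels left 7 of the 10 to test, without Lif, Il10 and Il10ra. The KO and WT arrays overlapped for all 10 genes after LPS and after saline, where 2.26% of all genes did not overlap after LPS (1.08% higher and 1.18% lower) and 3.89% after saline (1.81% higher and 2.08% lower).

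The point estimates after LPS were largest for Csf3 and Il6 and had wide intervals. Csf3 averaged 8.98 ± 1.37 in KO LPS and 8.17 ± 2.52 in WT LPS hearts (SD, n = 4 each), a difference of 0.81 with a 95% interval of -1.03 to 2.64. Il6 averaged 8.00 ± 1.67 in KO LPS and 7.27 ± 2.58 in WT LPS hearts, a difference of 0.73 (-1.23 to 2.69). Without WT LPS array 4 both differences changed sign, to -0.41 ± 0.52 and -0.49 ± 0.63, so their direction rested on that array. Without KO LPS array 4 they were 1.36 ± 0.89 for Csf3 and 1.52 ± 0.89 for Il6 and were not called (adjusted p = 0.540 and 0.486). Osmr differed by 0.33 (-0.15 to 0.81), Il6ra by 0.31 (-0.13 to 0.75), Lifr by -0.16 (-0.55 to 0.23) and Csf1 by 0.06 (-0.29 to 0.41). Without WT LPS array 4 these differences were 0.08 ± 0.18 for Osmr, 0.21 ± 0.22 for Il6ra, -0.06 ± 0.19 for Lifr and -0.0002 ± 0.18 for Csf1, and without KO LPS array 2 that of Il6ra was 0.08 ± 0.17. Il6st averaged 10.27 ± 0.20 in KO LPS and 10.56 ± 0.29 in WT LPS hearts, a difference of -0.29 (unadjusted p = 0.0428 and adjusted p = 0.659 by limma). Without WT LPS array 4, the highest of its group, the difference was -0.15 ± 0.11. Its other probe sets, brightest first, differed by 0.20 ± 0.20, -0.46 ± 0.31 and -0.51 ± 0.37 after LPS and were not called, so the direction depended on the probe set.

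**Figure D4:**
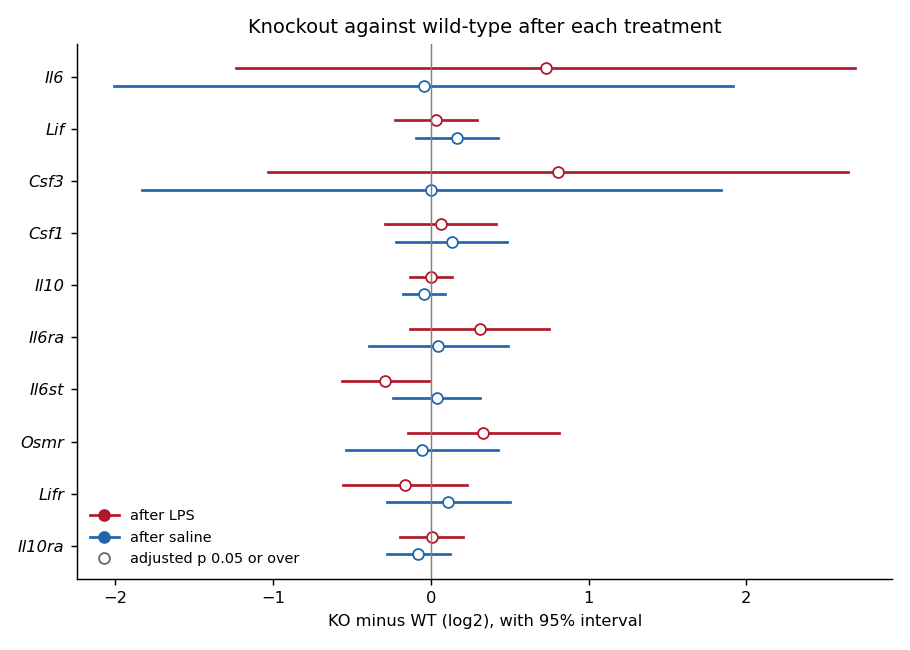
Difference between genotypes (horizontal axis, KO minus WT on the log2 scale, with 95% intervals from limma) for the 10 genes, after LPS above after saline. None was called; the intervals of Il6 and Csf3 span more than 3 log2 units, those of Il10 and Il10ra less than 0.5.

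After saline the genotypes lay close together. Differences of KO from WT hearts ran from -0.08 for Il10ra to 0.16 for Lif. The saline means of Il6 were 3.15 ± 0.16 in KO and 3.20 ± 0.13 in WT hearts, and those of Csf3 were 4.35 ± 0.15 and 4.35 ± 0.09. Their saline intervals in the plot of genotype differences are wide because the 16 arrays share 1 spread, which the LPS arrays raise. A fit of the saline arrays alone gave standard errors of 0.09 for both genes, with differences of -0.05 and 0.004. The difference of the LPS responses (KO minus WT) was 0.77 ± 1.31 for Il6, 0.80 ± 1.23 for Csf3, 0.39 ± 0.32 for Osmr, 0.26 ± 0.30 for Il6ra, -0.27 ± 0.26 for Lifr and -0.07 ± 0.24 for Csf1, with adjusted p of 0.959 or more for each of the 10 genes. Without WT LPS array 4 it was -0.45 ± 0.85 for Il6 and -0.41 ± 0.71 for Csf3, of opposite sign, and 0.14 ± 0.25 for Osmr, 0.16 ± 0.30 for Il6ra, -0.17 ± 0.26 for Lifr and -0.13 ± 0.24 for Csf1. In the order of group means, the 2 LPS groups were thus neighbours that did not differ beyond their spread for any of the 6 responding genes, as were the 2 saline groups.

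Il6 and Csf3 varied widely among the LPS arrays, and they varied together. The 2 LPS arrays lowest for both genes, WT array 4 and KO array 4, were also lowest on principal component 1 (7.58 and 27.6). KO array 2, the highest for both, was also the highest there (54.0). That component holds 66.3% of the variance of all genes, so the relations below need not be particular to these genes. What set this spread was not tested. Over the 8 LPS arrays, Il6 spanned 3.80 log2 units in KO and 5.52 in WT hearts, and Csf3 3.24 and 5.67, against at most 0.38 in any saline group for either gene. Il6 was set against the 5 other called genes, with exact two-sided permutation tests adjusted over these 5. Il6 and Csf3 had r = 0.98 (permutation p = 0.000298, adjusted p = 0.00149) and rho = 0.93 (permutation p = 0.00223, adjusted p = 0.0112). Without the 2 arrays farthest from the median of Il6, WT LPS array 4 and KO LPS array 4, r was 0.88 over the other 6 (permutation p = 0.0167). Among all other genes, 0.143% had an r with Il6 at least as far from 0 as that of Csf3 over the 8 arrays.

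Osmr had r = 0.93 with Il6 (permutation p = 0.00164, adjusted p = 0.00409) and rho = 0.74 (permutation p = 0.0458, adjusted p = 0.0720), and 1.78% of genes had an r as far from 0. Without the 2 farthest arrays r was 0.63 (permutation p = 0.0917). That relation was thus weaker without them, and 6 arrays of narrower Il6 range cannot tell whether it holds. Il6ra had r = 0.70 (permutation p = 0.0178, adjusted p = 0.0222) and rho = 0.86 (permutation p = 0.0107, adjusted p = 0.0268), with r = 0.79 without those arrays (permutation p = 0.0333). Lifr ran the other way, with r = -0.79 (permutation p = 0.0173, adjusted p = 0.0222) and rho = -0.71 (permutation p = 0.0576, adjusted p = 0.0720). Its r was -0.55 without those arrays (permutation p = 0.258), with the same limit as for Osmr. For Il6ra and Lifr, 21.9% and 13.2% of all genes had an r as far from 0, in either direction. Csf1 had r = -0.24 (permutation p = 0.534, adjusted p = 0.534) and rho = -0.43 (permutation p = 0.299, adjusted p = 0.299), with r = -0.88 over the 6 arrays (permutation p = 0.0667). With 4 arrays in each, the genotypes could not be taken apart in these relations.

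**Figure D5:**
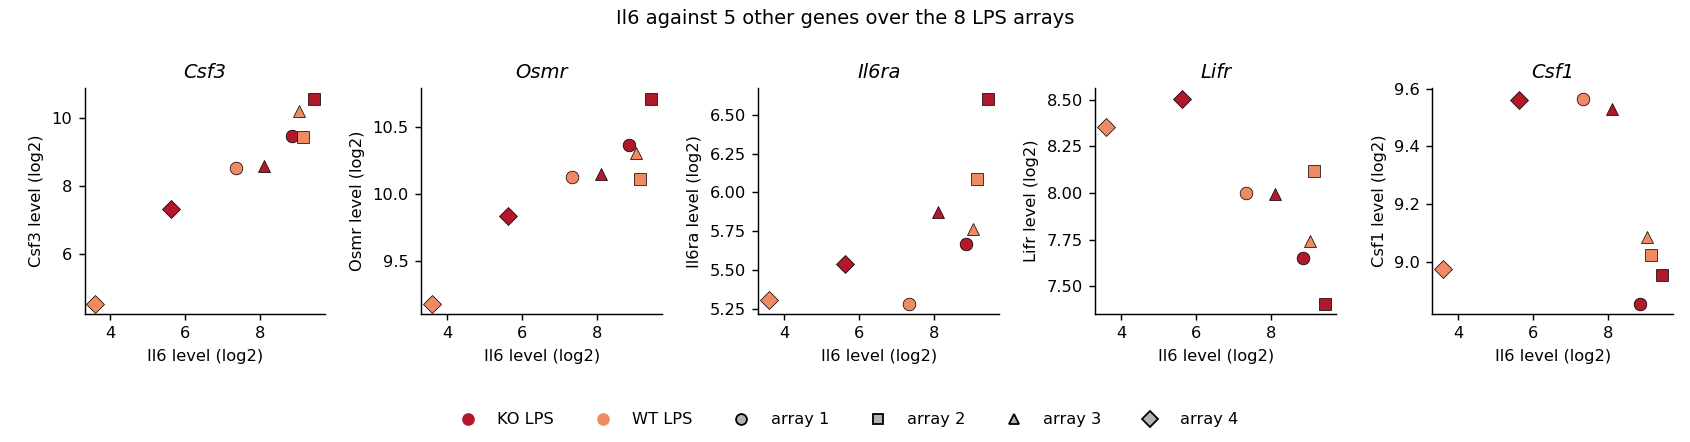
Log2 level of Il6 (horizontal axis) against the levels of Csf3, Osmr, Il6ra, Lifr and Csf1 (vertical axes) in the 8 LPS arrays, KO in dark red and WT in orange, with symbols for array number. Array 4 of each genotype (diamonds) holds the 2 lowest Il6 and Csf3 levels, and the other 6 arrays keep the relation of Il6 with Csf3.

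The genes with the most similar profiles were found by the root mean square difference of centred log2 values over the 16 arrays, leaving out the 10 genes themselves. Closest to Il6 were Inhbb (0.52), which encodes an activin subunit, and the neutrophil attractants Cxcl5 (0.55) and Cxcl2 (0.57), where the median over all genes was 2.62. Closest to Osmr were Irak3 (0.24), a brake on Toll-like receptor signalling, the metallothionein Mt1 (0.24) and Ctla2a (0.24), against a median of 1.35. For Il6ra these were Gm9706 (0.16), Tpd52 (0.19) and Pgs1 (0.21), and for Lifr they were Smpdl3a (0.16), Syde2 (0.16) and Nebl (0.17), a Z-disc protein gene, against medians of 0.63 and 0.67.

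The rest of the pathway was followed in lists chosen with earlier results of these data known. Of 9 other measured cytokines and receptors of the gp130 family, none was called in WT hearts, and 2 were lower and 0 higher in KO hearts. Of all genes, 20.9% were called in WT and 26.1% in KO hearts (14.7% lower), so the KO count is near the background. The receptor chain gene Cntfr changed by -0.65 ± 0.14 in KO and -0.11 ± 0.14 in WT hearts. Il31, at levels near 3, changed by -0.16 ± 0.05 in KO and 0.01 ± 0.05 in WT hearts. Whether these changes differ between genotypes was tested and not called for any gene. The list's median change was -0.06 in KO and 0.02 in WT hearts, near the medians over all genes. The ligand of the rising receptor chain, Osm, averaged 5.25 in KO LPS and 5.37 in WT LPS hearts, against 5.30 in KO saline and 5.21 in WT saline hearts, and did not pass the test (adjusted p = 0.775 in KO and 0.354 in WT hearts).

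Of 14 measured genes of gp130 signalling and its control, 5 rose and 2 fell in KO hearts, where 26.1% of all genes were called. In WT hearts 6 rose and 2 fell, where 20.9% of all genes were called. Their median changes were 0.28 and 0.37. Socs3, the feedback inhibitor of gp130, rose by 4.26 ± 0.41 in KO and 3.99 ± 0.41 in WT hearts. The phosphatase gene Ptpn2 rose by 1.65 ± 0.24 in KO and 1.04 ± 0.24 in WT hearts, and Stat3 itself by 1.41 ± 0.13 and 1.29 ± 0.13. The kinase gene Jak2 rose by 0.68 ± 0.13 and 0.86 ± 0.13. The 2 that fell were Gab1, an adaptor that docks on activated receptors, by 0.86 ± 0.13 in KO and 0.51 ± 0.13 in WT hearts, and Adam17, a protease that sheds the IL-6 receptor, by 0.34 ± 0.11 and 0.36 ± 0.11. Of 15 genes known to respond to STAT3, 13 rose and 0 fell in each genotype, where 11.4% and 9.28% of all genes were higher, with median changes of 2.14 in KO and 1.84 in WT hearts. Among them were Serpina3n (6.72 ± 0.17 and 6.95 ± 0.17), a protease inhibitor, Lrg1 (4.85 ± 0.18 and 4.54 ± 0.18), a secreted glycoprotein, and Timp1 (4.62 ± 0.22 and 4.32 ± 0.22), an inhibitor of matrix proteases. Fgg and Mcl1 were the 2 not called. These genes also answer other signals, and the list is no measure of gp130 activity by itself.

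On the side of the colony-stimulating factors, 1 of 9 other genes rose and 2 fell in KO hearts, and 2 rose and 2 fell in WT hearts, with median changes of 0.11 and 0.08. Over all genes the shares called were 26.1% in KO and 20.9% in WT hearts, so the KO count in particular is near the background. Csf2rb, the shared signalling chain for GM-CSF and IL-3, rose by 2.95 ± 0.16 in KO and 2.73 ± 0.16 in WT hearts. The receptor for the rising Csf1, Csf1r, fell by 1.35 ± 0.27 in KO and by 0.90 ± 0.27 in WT hearts (adjusted p = 0.00123 and 0.0245). Csf1r marks macrophages and is 1 of them: the 7 measured macrophage and monocyte markers averaged 6.52 to 7.44 in KO LPS and 6.71 to 8.33 in WT LPS arrays (8.33 in array 4), against 7.65 to 7.79 in KO saline and 7.75 to 7.88 in WT saline arrays, with 3 of the 7 lower in KO and 2 in WT hearts and 0 higher. Their part in the result was not tested. Kitl, the ligand of the Kit receptor, fell by 1.67 ± 0.18 and 1.78 ± 0.18. The receptor for the rising Csf3, Csf3r, averaged 4.75 in KO LPS and 4.73 in WT LPS hearts, against 4.51 in KO saline and 4.39 in WT saline hearts, and was not called (adjusted p = 0.327 and 0.175). Of 8 other interleukin-10 family genes, 1 rose and 1 fell in each genotype, a share near the same background, with median changes of -0.03 in KO and 0.08 in WT hearts. Il10rb, the second chain of the IL-10 receptor, fell by 1.26 ± 0.15 in KO and by 0.76 ± 0.15 in WT hearts. The gene called higher was Il20rb in KO hearts (0.49 ± 0.16) and Il20 in WT hearts (0.35 ± 0.11), both at levels under 5.05. In the other genotype, Il20rb changed by 0.42 ± 0.16 (WT) and Il20 by 0.19 ± 0.11 (KO). The difference of responses was not called for either gene (adjusted p = 0.989 and 0.959 by limma).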

How the data were processed

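Total RNA from 16 ventricular myocardium samples was measured on Affymetrix arrays, 1 array each, after labelling as biotinylated cRNA. The authors deposited log2 probe set values made with RMA, per the submitters' processing notes; the RMA version is not given in the sources used here. Of 45101 probe sets, none lacked a value (0 missing), 64 were controls and were dropped, 34945 had 1 gene symbol in the platform annotation (of which 34741 matched the RefSeq gene table, GRCm38.p6, by Entrez identifier), 932 had several and 9160 none. The probe set of highest mean stood for each gene, which left 18193 genes. With no read depth to go by, precision is limited by the 4 arrays of each group.

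One mean per group was fitted to the 16 arrays with limma 3.58.1 in R 4.3.3 (intensity trend, 12 residual degrees of freedom, two-sided, Benjamini-Hochberg over all genes). The fit was tested on simulated data. Permutation tests used scipy 1.17.1. The members and gene lists were chosen with earlier results of these data known. All 10 genes were named. From each list, up to 4 called genes with the largest changes could be named. Osm, Csf3r, Cxcr2, Ltf, Fgg, Mcl1, Gab1 and Adam17 fell outside that rule and were chosen after their values were seen. Genes of like profile were the 3 closest to Il6, Il6ra, Osmr and Lifr. Cell type lists without a value in the text (endothelium, fibroblast, T and NK cell, B cell, adipocyte, erythroid, Schwann cell) appear in the closing section. Alternatives were no trend, robust variances, array weights, median centring, a filter on low levels, mean of probe sets, only the arrays compared, replicate number as a block, leaving out each array, and leaving out WT saline arrays 1 and 4. Arrays of the same number did not in general deviate together (median correlation -0.03, with 3 of 24 pairs over 0.1). The highest such correlation, 0.33, was that of WT LPS array 4 with KO LPS array 4.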

Additional observations from a re-analysis of the deposited data

Results flagged for a closer look

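In 40 groups of 4 arrays (10 genes by 4 groups), 2 held an array farther from the rest than Dixon's test allows at 95%, where chance alone flags about 1 in 20. Osmr stood at 9.18 in WT LPS array 4, against 10.12 to 10.30 in the other WT LPS arrays. Il10 stood at 3.27 in KO LPS array 3, against 3.05 to 3.08 in the other KO LPS arrays.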

How the results depend on the processing

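Every call among the 10 genes kept its direction and its side of the threshold under each alternative in which the gene was tested, with 1 exception: Il6ra in WT hearts without WT saline arrays 1 and 4 (0.84, adjusted p = 0.0640). The count of the 10 genes called after LPS was 6 in KO hearts under each alternative and 5 or 6 in WT hearts, and it was 0 for both knockout comparisons and the difference of responses. The filter on low levels tested 7 of the 10 genes, without Lif, Il10 and Il10ra. Over all genes, the WT LPS count was 2061 without WT saline arrays 1 and 4, against 3798 with them. The count for KO against WT after saline was 21 with array weights, 0 among genes above the median level, 14 with only the arrays compared and 1 to 5 when 1 array was left out. The count after LPS was 0 with only the arrays compared, 0 without WT saline arrays 1 and 4, and 0 to 3 when 1 array was left out. The replicate block (numbers shared by the groups, which the labels do not tie to litters or days) gave 4487 genes called in KO hearts and 3537 in WT hearts after LPS and changed no call of the 10 genes; 4 of 16 arrays correlated best with an array of their own number. The difference of responses was not refitted on only the arrays compared, since it uses all 16. With 4 arrays per group there are intervals of over 3 log2 units for the genotype differences of Il6 and Csf3.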

Other observations

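The remaining cell type lists changed as follows after LPS, where 26.1% of all genes were called in KO and 20.9% in WT hearts. Of 7 endothelial markers, 3 fell in KO and 2 in WT hearts (median changes -0.45 and -0.39), and of 7 fibroblast markers, 2 fell in each genotype (-0.32 and -0.60). Of 6 T and NK cell markers, 0 were called in KO and 1 rose in WT hearts (0.16 and 0.13), and of 4 B cell markers, 1 fell in each (-0.12 and -0.18). Of 4 adipocyte markers, 2 fell in KO and 3 in WT hearts (-0.38 and -1.06). Of 2 erythroid markers, 1 fell in KO and 0 in WT hearts (-0.52 and -0.16), and of 2 Schwann cell markers, 1 fell in each (-0.25 and -0.27). Of 8 cardiomyocyte markers, 5 fell in KO and 4 in WT hearts (-0.21 and -0.15), and of 8 skeletal muscle markers, 1 fell in KO and 2 in WT hearts (-0.12 and -0.75).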
